A study of Mus musculus with 11 samples.

Results

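The proteasome genes of mouse skeletal muscle were examined in soleus and quadriceps after induction of the transcription factor Myc. The family was taken as every gene whose symbol is Psma, Psmb, Psmc, Psmd or Psme followed by a number, and it held 41 of the 13359 genes listed in either muscle's table. All 41 were listed in both muscles, and all 41 passed the filter on low values. Values are the authors' normalised read counts, and log2 changes are the Myc-labelled group minus the control group.

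RNA was sequenced from 3 control and 4 Myc-labelled soleus libraries and from 2 control and 2 Myc-labelled quadriceps libraries, all from mice aged 2.5 months. Per the labels, Myc was switched on by doxycycline given overnight through a tetracycline-controlled system, and muscles were taken 12 hours after the drug was withdrawn. Controls were mice of the same age. The labels name neither the promoter nor the cell type that drives the transgene, nor the controls' genotype or whether they received doxycycline, and they do not say whether libraries came from separate animals. The p-values therefore measure the spread between these libraries.

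The proteasome is the large protease that degrades proteins tagged with ubiquitin. Its 20S core is a barrel of outer alpha rings and inner beta rings that carry the catalytic sites, and the 19S cap recognises, unfolds and feeds in the substrate. In muscle the complex clears sarcomeric and damaged proteins and takes part in atrophy, and subunit genes are known to be induced together by the transcription factor encoded by Nfe2l1. In immune cells and after interferon, inducible catalytic subunits replace the constitutive ones, and the Psme genes encode alternative activators of the core.

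Promoters were searched for CACGTG, the E-box letters that Myc is known to bind, on both strands of a window from 250 bases before to 50 after the RefSeq start site (GRCm38.p6). The table held 35 of the 41 genes, and Psmb1, Psmb2, Psmb7, Psmc3, Psmd3 and Psmd7 had no entry. The letters were present in 4 of the 35 (11.4%), which were Psma4, Psmb10, Psmd9 and Psme3. They were in 7.15% of all 32841 windows in the table and in 12.0% of the 10135 genes tested in soleus that had one, so the family's share was near that of the tested genes. Among all genes called higher in soleus that had a window, 146 of 743 (19.7%) held the letters. Among those called lower, 19 of 230 (8.26%) did. These 4 stretches are shown because they include both proteasome genes that rose in soleus, Psmb10 and Psme3, beside Psma4 and Psmd9, which were not called and hold the same letters. Each runs 5′ to 3′ on the gene's own strand and ends before the first annotated start site, with the E-box letters in capitals. That site is the first of those in RefSeq and GENCODE, so the stretches of Psmb10 and Psma4 stop short of the RefSeq start, from which distances are counted.
Psmb10 promoter: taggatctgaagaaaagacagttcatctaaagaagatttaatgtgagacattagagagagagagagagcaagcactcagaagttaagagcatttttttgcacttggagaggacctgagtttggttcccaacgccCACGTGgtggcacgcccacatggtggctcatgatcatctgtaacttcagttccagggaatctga
Psme3 promoter: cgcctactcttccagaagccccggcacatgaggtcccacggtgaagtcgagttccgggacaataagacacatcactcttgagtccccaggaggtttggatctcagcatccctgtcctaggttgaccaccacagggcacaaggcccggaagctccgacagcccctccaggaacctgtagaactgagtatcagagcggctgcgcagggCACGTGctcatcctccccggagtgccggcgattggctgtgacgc
Psma4 promoter: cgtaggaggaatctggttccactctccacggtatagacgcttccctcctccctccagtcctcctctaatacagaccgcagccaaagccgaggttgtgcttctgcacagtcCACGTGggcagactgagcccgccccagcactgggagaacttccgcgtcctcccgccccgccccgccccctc
Psmd9 promoter: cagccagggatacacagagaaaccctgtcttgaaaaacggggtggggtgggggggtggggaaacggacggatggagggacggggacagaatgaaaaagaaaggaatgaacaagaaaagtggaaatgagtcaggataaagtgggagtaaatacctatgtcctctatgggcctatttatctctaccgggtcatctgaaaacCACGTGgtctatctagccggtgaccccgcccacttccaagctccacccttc

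The Psmb10 stretch is chr8:105938445-105938642 on the minus strand, and its E-box began 116 bases before the RefSeq start site. The Psme3 stretch is chr11:101315963-101316212 on the plus strand, with the E-box beginning 44 bases before the start site. The Psma4 stretch is chr9:54950609-54950789 and the Psmd9 stretch chr5:123227940-123228189, both on the plus strand, with the E-box beginning 140 and 51 bases before the start site. A match is only a string of letters and no binding was measured. Soleus log2 changes for the 4 genes were 0.91 for Psmb10, 0.60 for Psme3, 0.07 for Psma4 and 0.24 for Psmd9.

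Other motifs were searched in the same windows and on both strands. TGACNNNGC, the core of the antioxidant response element that the Nfe2l1 product binds, was in 6 of 35 members (17.1%) against 17.0% of the genes tested in soleus. CCAAT was in 13 of 35 (37.1%) against 42.5%. The core of interferon response elements, GAAA repeated after any 2 bases, was in 4 of 35 (11.4%), namely Psmb3, Psmd4, Psmd9 and Psme1, against 3.48%. In Psme1 it began 10 bases after the start site, outside any stretch shown here.

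Estimated depth was 11.1 to 14.9 M reads in soleus and 14.2 to 18.4 M in quadriceps. The Myc gene's own row did not separate the labelled groups: in soleus it spanned 28.2 to 54.3 in controls and 26.3 to 31.0 in Myc-labelled libraries, and in quadriceps 55.7 to 113.7 and 33.6 to 86.4. Whether that row counts transcripts of the transgene is not stated, so every direction below rests on the labels. Skeletal muscle markers (Acta1, Ckm, Des, Ttn and Mb) were listed in both muscles and abundant in every library. Slow-fibre markers differed between quadriceps libraries, with sums of 24137 and 176143 in the controls and of 1728 and 3103 in the Myc-labelled libraries. Every quadriceps comparison carries that difference, whose part in the results was not tested. Soleus libraries also differed in 1 fast-fibre marker, Myh4. It spanned 664 to 26823.5 in controls and 243 to 17469 in Myc-labelled libraries, and its part was not tested either.

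In soleus, 3 of the 41 genes (7.32%) were called at an adjusted p under 0.05 (limma). Psmb10 and Psme3 rose and Psme1 fell. Over all 12745 genes tested, 9.29% were called, 7.06% higher and 2.23% lower, so the family's share was near the background. At an unadjusted p under 0.05, 5 members passed (the other 2 were Psmb5 and Psme4), against 21.7% of all genes. The members' median log2 change was 0.05, beside -0.03 over all genes, and their range was -0.50 for Psme1 to 0.91 for Psmb10. Groups did not overlap for 5 members with the Myc-labelled libraries above and 2 with them below, against 12.7% and 8.35% of all genes.

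**Figure D1:**
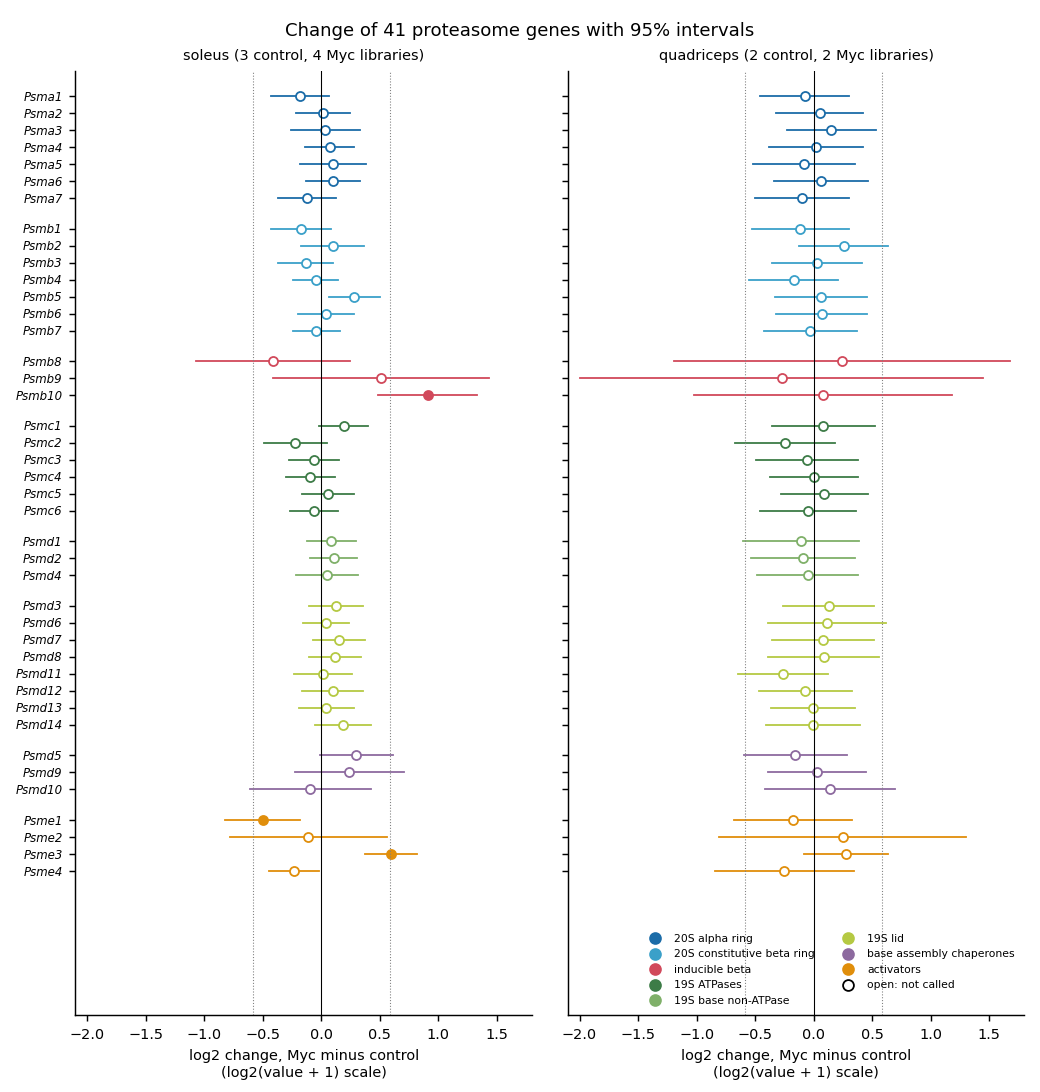
Log2 change (Myc-labelled minus control) of all 41 proteasome genes in soleus and in quadriceps, ordered by role, with bars for the 95% limma interval and filled points for called genes. The points of the constitutive subunits lie close to 0 in both muscles, and the called genes Psmb10, Psme3 and Psme1 belong to the inducible subunits and the activators.

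The 31 constitutive subunits of the 20S core and the 19S cap made up most of the family, and none was called in soleus (limma, with 1 of 31 at an unadjusted p under 0.05). Their log2 changes ran from -0.22 for Psmc2 to 0.28 for Psmb5, with a median of 0.05. All 31 had a 95% interval inside a 1.5-fold change in either direction, the outermost bounds being -0.49 and 0.50. The summed value of the 31 was 45358 ± 2911 in controls (SD, n = 3; 43455 to 48709) and 46534 ± 3567 in Myc-labelled libraries (SD, n = 4; 43180 to 50186), and the groups overlapped.

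The alpha ring gates entry to the core, and the 7 Psma genes had a median log2 change of 0.04. Psma1 lay lowest, with 1184, 1122 and 1449.8 in controls 1 to 3 and 1172, 937, 1135 and 1159 in Myc-labelled libraries 1 to 4, a change of -0.18 within overlapping groups. Psma6 lay highest at 0.10, with 1403, 1373 and 1400.5 in controls and 1450.4, 1272, 1725 and 1565 in Myc-labelled libraries, which also overlapped. Psma5 changed little but its groups did not overlap: controls held 328.7, 330.8 and 331.1, and Myc-labelled libraries 332.9, 343.2, 355.8 and 386.0, a log2 change of 0.10.

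In the constitutive beta ring, Psmb6, Psmb7 and Psmb5 carry the caspase-like, trypsin-like and chymotrypsin-like sites. Psmb5 held 1130.1, 1239 and 1089 in controls against 1302, 1315, 1590.1 and 1415 in Myc-labelled libraries, so every Myc-labelled library lay above every control. Its log2 change of 0.28 ± 0.10 (SE; 95% interval 0.06 to 0.50) did not pass (limma, adjusted p = 0.11), and it passed when libraries were scaled by their totals instead (adjusted p = 0.033). Psmb6 held 1252, 1244 and 1368 in controls against 1289.8, 1111, 1439 and 1484 in Myc-labelled libraries, a log2 change of 0.04. Psmb7 held 1764, 1926 and 1824 in controls against 1830.1, 1737, 1924 and 1663 in Myc-labelled libraries, a log2 change of -0.04. Both pairs of groups overlapped. Among the structural beta subunits, Psmb1 lay lowest at -0.17, with 1583, 1414 and 2049.7 in controls and 1452, 1356, 1513 and 1585 in Myc-labelled libraries, where the third control stood above the rest.

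The inducible beta subunits take the places of the constitutive catalytic ones in the immunoproteasome, and of the 3 only Psmb10, the counterpart of Psmb7, was called. Psmb10 held 144.9, 206.6 and 116.2 in soleus controls against 247.3, 282.9, 282.1 and 336.5 in Myc-labelled libraries. The lowest Myc-labelled library lay above the highest control. Means were 156 ± 46.2 (SD, n = 3) and 287 ± 36.8 (SD, n = 4). The rise was 1.88-fold on the log2(value + 1) scale, a log2 change of 0.91 ± 0.20 (SE; 95% interval 0.48 to 1.33; limma, adjusted p = 0.0076). On the annotation Psmb10 overlaps the antisense gene Gm16156, which had no row, and whether reads were counted by strand is not stated. The call was lost when both muscles were fitted as 1 set (limma, adjusted p = 0.066) and (adjusted p = 0.11) without Myc-labelled libraries 3 and 4 together, an alternative chosen after seeing the data.

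Psmb8, the counterpart of Psmb5, held 101.6, 91.2 and 78.7 in controls against 39.9, 89.6, 88.7 and 65.3 in Myc-labelled libraries. Its log2 change was -0.41 (95% interval -1.07 to 0.25), and the groups overlapped. Psmb9, the counterpart of Psmb6, held 20.32, 29.10 and 46.96 in controls against 23.4, 50.2, 43.8 and 70.3 in Myc-labelled libraries, a log2 change of 0.51 (95% interval -0.41 to 1.43) at a low level. On the annotation Psmb8 overlaps the antisense gene Gm20496, and Psmb9 overlaps the protein-coding gene Tap1 on the opposite strand. Psmb7 likewise overlaps Nek6. The limit on strand given for Psmb10 holds for these genes and for ratios that use them. Whether the 3 inducible genes differed from one another in their change was not tested.

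Per kilobase of transcript, soleus controls held 7.47 ± 1.94 Psmb10 for every 100 of Psmb7 (SD, n = 3; 5.64 to 9.49), and Myc-labelled libraries held 14.3 ± 2.60 (SD, n = 4; 12.0 to 17.9). The ratio of Psmb8 to Psmb5 was 4.34 ± 0.544 per 100 in controls (3.99 to 4.97) and 2.77 ± 0.873 in Myc-labelled libraries (1.69 to 3.76). Psmb9 stood at 1.46 ± 0.538 per 100 of Psmb6 in controls and 2.08 ± 0.808 in Myc-labelled libraries, with overlapping values. The ratios are descriptions of transcripts with no test of their own, and 17.9 per 100 was the highest of the 3 in any library.

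**Figure D2:**
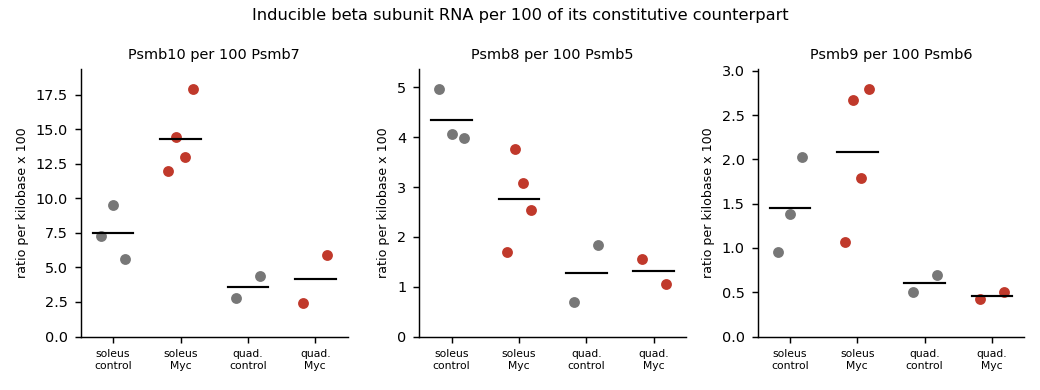
Inducible catalytic subunits per 100 of their constitutive counterparts, per kilobase of transcript, in each of the 11 libraries, with group means. In soleus the Psmb10 to Psmb7 ratio is 5.64 to 9.49 in controls and 12.0 to 17.9 in Myc-labelled libraries, and the Psmb8 to Psmb5 ratio is lower in the Myc-labelled group.

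The 6 Psmc genes encode the ring of ATPases that unfolds substrates. Their median log2 change was -0.06, and none was called. Psmc1 lay highest at 0.19, with 1370.4, 1426 and 1289 in controls and 1448, 1459.9, 1728 and 1590.4 in Myc-labelled libraries, which did not overlap. Psmc2 lay lowest at -0.22, with 1246, 1350.3 and 1641 in controls and 1083, 1048, 1443 and 1277 in Myc-labelled libraries, which did.

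Among the other base subunits, Psmd1 and Psmd2 are scaffolds and Psmd4 is a ubiquitin receptor. Psmd2 held 4095, 3881 and 3956 in controls against 3933, 4083, 4808 and 4367 in Myc-labelled libraries, a log2 change of 0.11. Psmd4 held 1589.6, 1861 and 1757 in controls against 1488, 1642, 2209.6 and 1914 in Myc-labelled libraries, a log2 change of 0.05.

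All 8 lid genes had a soleus log2 change above 0, with a median of 0.11, and none was called. Of all 12745 genes tested in soleus, 5806 were above 0. In quadriceps 4 of the 8 lid genes were above 0 and 4 below. Psmd14, the deubiquitinase that removes the ubiquitin chain, lay highest at 0.18, with 632, 589 and 689 in controls and 659, 699.8, 775 and 757 in Myc-labelled libraries. Psmd11, which helps hold the lid to the core, lay lowest at 0.02, with 685, 671 and 839 in controls and 663, 741, 776 and 775 in Myc-labelled libraries. Groups overlapped for both genes.

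Psmd5, Psmd9 and Psmd10 carry Psmd symbols but encode chaperones that assemble the base and are not part of the finished complex. Psmd5 held 306, 337 and 272 in controls against 424, 324, 355 and 402 in Myc-labelled libraries, a log2 change of 0.30 (limma, adjusted p = 0.25). Psmd10 lay lowest at -0.09, with 122, 144 and 135 in controls and 161, 90.4, 162 and 104 in Myc-labelled libraries. Psmd9 spread widely within controls, at 348, 284 and 164, against 312, 347, 279.8 and 265 in Myc-labelled libraries.

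The activators held the other called genes, and they moved in both directions. Psme3 encodes the ring-shaped nuclear activator known for ubiquitin-independent degradation. It held 1199.9, 945 and 1169 in soleus controls against 1547, 1633, 1690.3 and 1783 in Myc-labelled libraries, with every Myc-labelled value above every control. Means were 1105 ± 139 (SD, n = 3) and 1663 ± 99.4 (SD, n = 4), a 1.51-fold rise and a log2 change of 0.60 ± 0.11 (SE; 95% interval 0.37 to 0.82; limma, adjusted p = 0.0015). Psme3 passed under each of the 17 alternatives tried in soleus, with log2 changes of 0.49 to 0.66.

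Psme1 and Psme2 encode the partner subunits of the cytoplasmic activator that interferon induces. Psme1 held 433, 335 and 337 in soleus controls against 258, 237, 279 and 261 in Myc-labelled libraries, and the groups did not overlap. Means were 368 ± 56.1 (SD, n = 3) and 259 ± 17.1 (SD, n = 4), a log2 change of -0.50 ± 0.15 (SE; 95% interval -0.82 to -0.18; limma, adjusted p = 0.047), with the Myc-labelled mean at 0.707 times the control mean on the log2(value + 1) scale. The call was near the threshold and was kept under 5 of 17 alternatives. Leaving out any single soleus library ended it, and without control 1, the highest control, the change was -0.38 (adjusted p = 0.24).

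Psme2 held 117.2, 61.9 and 68.3 in controls against 101.0, 51.4, 63.9 and 86.4 in Myc-labelled libraries, a log2 change of -0.11 (95% interval -0.78 to 0.56) with overlapping groups. Psme2b, a near-identical copy, held 233 ± 14.3 in controls against 237 ± 19.5 in Myc-labelled libraries, and the division of reads between the copies is uncertain. On the annotation Psme1 overlaps Emc9 on the opposite strand, with the same limit. Emc9 held 185 ± 16.5 in controls against 184 ± 35.6 in Myc-labelled libraries.

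Immune cells express Psmb8, Psmb9, Psmb10, Psme1 and Psme2, and in bulk muscle fewer cells of a type cannot be told apart from less RNA per cell. Of 10 leukocyte markers, 8 were listed in soleus (Cd3e and Cd79a were not) and none of the 8 was called. Their summed value was 1269 to 1587 in controls and 571 to 1279 in Myc-labelled libraries, and 7 of 8 had a log2 change below 0. Psme1 was lower and Psmb10 higher in the same libraries. Other marker lists also lay below 0 in soleus: 0 of 8 fast-fibre markers had a log2 change above 0, with sums of 646840 to 677222 in controls and 425061 to 677306 in the Myc-labelled group, and 1 of them, Mylpf, fell (-0.47; limma, adjusted p = 0.010). None of 3 endothelial markers was above 0 (sums 5021 to 5639 and 4167 to 4907), nor was any of 4 fibroblast markers (sums 9360 to 12923 and 3971 to 11538), and none of these was called. Of 5 skeletal muscle markers 1 was above 0, and none was called. Their sums did not overlap, at 1047310 to 1121440 in controls and 905341 to 997250 in the Myc-labelled group. Of 8 slow-fibre markers 2 were above 0 and none was called, with overlapping sums (494217 to 577968 and 469647 to 599779). The part of any of these cells or fibres in either result was not tested.

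Psme4 encodes a large single-chain nuclear activator. It held 2535, 2739 and 2697 in controls against 2251, 2378, 2486 and 1967 in Myc-labelled libraries, so all controls lay above all Myc-labelled libraries. The log2 change was -0.23 ± 0.10 (SE) and did not pass (limma, adjusted p = 0.18). The ratio of Psme1 to Psme3 per kilobase was 0.801 ± 0.0963 in controls (SD, n = 3; 0.690 to 0.864) and 0.373 ± 0.0278 in Myc-labelled libraries (SD, n = 4; 0.348 to 0.400), which combines the fall of one with the rise of the other.

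**Figure D3:**
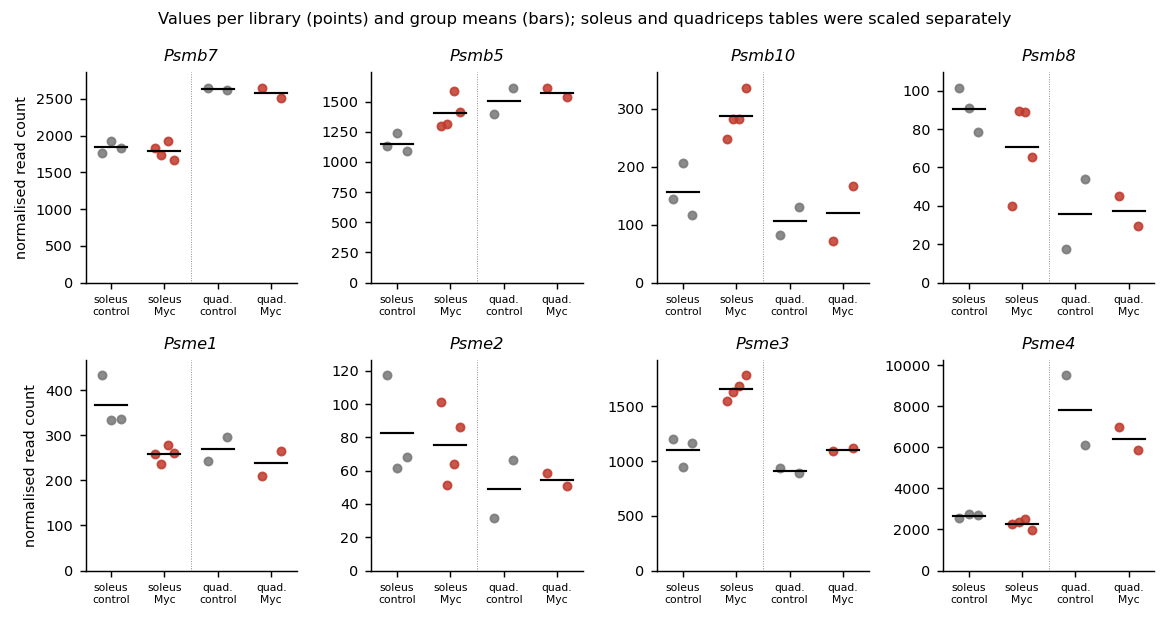
Normalised read counts of Psmb7, Psmb5, Psmb10, Psmb8 and the activators Psme1 to Psme4 in each of the 11 libraries, by muscle and group, with group means. In soleus the Myc-labelled libraries lie above all controls for Psmb10, Psme3 and Psmb5, and below all controls for Psme1 and Psme4. Psmb5 and Psme4 were not called. Of all genes tested in soleus, 12.7% lay above and 8.35% below in this way.

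In quadriceps no member was called (0 of 41, limma). None reached an unadjusted p under 0.05, and limma-voom also called none. Over all 12270 genes 0.00815% were called and 6.21% had an unadjusted p under 0.05. The members' median log2 change was 0.00, beside -0.03 over all genes, and the range was -0.27 for Psmb9 to 0.28 for Psme3. With 2 libraries a group the intervals were wide: 27 of 41 members, and 26 of the 31 constitutive subunits, had an interval inside a 1.5-fold change. The summed value of the 31 was 52081 ± 1414 in controls and 51893 ± 5600 in the Myc-labelled pair (SD, 2 libraries a group).

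Psme3 held 933 and 893 in quadriceps controls against 1093 and 1118 in Myc-labelled libraries. It was 1 of 5 members whose Myc-labelled libraries lay above both controls, and 2 members lay below, against 18.3% and 16.9% of all genes. Its log2 change was 0.28 (95% interval -0.08 to 0.64; limma, adjusted p = 0.87). Psmb10 held 82.4 and 130.5 in controls against 72.0 and 166.8 in Myc-labelled libraries, a log2 change of 0.08 with an interval of -1.02 to 1.18. Replicates of Psmb10 thus differed by more than the groups did. Psme1 held 242.5 and 295.9 in controls against 210.8 and 265.5 in Myc-labelled libraries, a log2 change of -0.18 (95% interval -0.68 to 0.33) with overlapping groups.

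Of the catalytic subunits, Psmb5 held 1398 and 1617 in quadriceps controls against 1610.5 and 1539 in Myc-labelled libraries. Psmb6 held 1509 and 1684 in controls against 1729.8 and 1615 in Myc-labelled libraries. Psmb7 held 2647 and 2615 in controls against 2652 and 2512 in Myc-labelled libraries. In each of the 3 the groups overlapped. Psme4 spread widely between controls, at 9493 and 6102 in controls and 6964 and 5881 in Myc-labelled libraries, and Psme2 held 31.3 and 66.5 against 58.6 and 50.6. Psmb8 held 17.4 and 54.0 in controls against 45.3 and 29.6 in Myc-labelled libraries, and Psmb9 12.8 and 19.9 against 12.3 and 13.8, all low.

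The change was compared between muscles by an interaction term over all 11 libraries. No member was called (0 of 41, 0 at an unadjusted p under 0.05, and 0 by limma-voom), and over 11971 genes 0% were called, with 3.18% at an unadjusted p under 0.05. The soleus change exceeded the quadriceps change by 0.83 on the log2 scale for Psmb10 (95% interval -0.17 to 1.83) and by 0.32 for Psme3 (95% interval -0.05 to 0.69). For Psme1 the difference was -0.32, and for Psmd5 it was 0.46, each with an adjusted p of 0.999 (limma). The intervals leave room for a difference in either direction, so a call in soleus without one in quadriceps does not show that the muscles differ.

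Levels in control muscle are given side by side without a test, because the tables of the 2 muscles were scaled separately. Per kilobase of transcript, the 31 constitutive subunits spanned 160 (Psma3) to 1635 (Psmd8) in soleus, with a median of 958, and 225 (Psma3) to 2268 (Psmb7) in quadriceps, with a median of 986. The inducible subunits lay below all of them, at 119 for Psmb10, 55.6 for Psmb8 and 23.8 for Psmb9 in soleus and 81.2, 21.9 and 12.1 in quadriceps. The 3 base chaperones lay between 69.3 and 102 in soleus and between 71.9 and 157 in quadriceps. A subunit's stoichiometry in the complex is fixed, while these transcript levels differed up to 10.2-fold within soleus. The order depends on the annotated transcript length, which for Psma3 is 2846 bases.

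Among the activators, Psme3 held 415 per kilobase in soleus controls, Psme4 409, Psme1 331 and Psme2 85.7. In soleus controls the per-kilobase levels of Psme3 (SD 52.3) and Psme4 (SD 16.6) differed by less than their spread. In quadriceps controls Psme4 stood first at 1201, followed by Psme3 at 343, Psme1 at 242 and Psme2 at 50.9. In CPM on estimated reads, Psme4 was 203 ± 8.75 in soleus controls (SD, n = 3) and 399 and 576 in the quadriceps controls. 

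**Figure D4:**
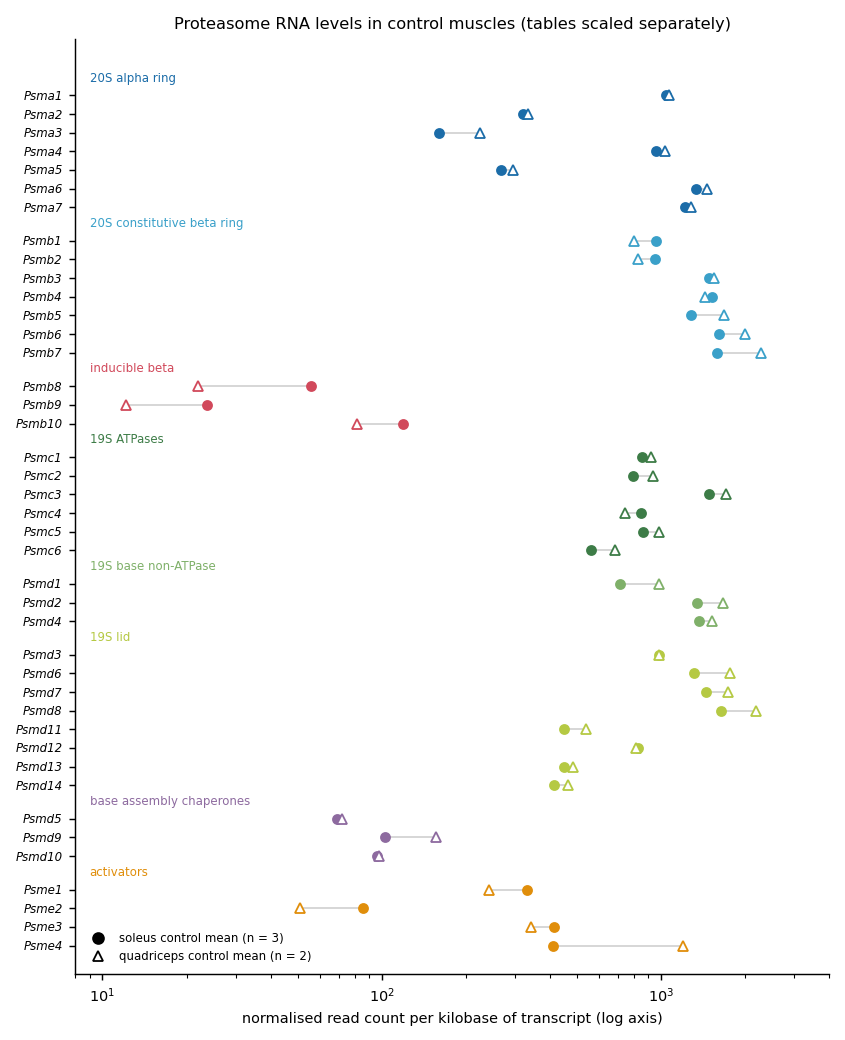
Level of each of the 41 proteasome genes per kilobase of transcript in control soleus and control quadriceps, on a log axis, by role. The inducible subunits and the base chaperones lie below the constitutive subunits in both muscles, and Psme4 is higher on the quadriceps scale.

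Genes that work with the proteasome were taken from lists, by symbol. Of 16 assembly and associated factors tested in soleus, 3 rose, none fell, and the median log2 change was 0.10. Over all genes tested in soleus 7.06% were called higher and 2.23% lower, with a median of -0.03, and the counts of the other lists are read beside the same shares. Psmg1 and Psmg2 encode the partner chaperones that start alpha-ring assembly. Psmg1 held 92.8, 99.9 and 83.3 in controls against 160.6, 168.3, 147.4 and 142.5 in Myc-labelled libraries, a log2 change of 0.74 (limma, adjusted p = 0.032) with groups apart. Psmg2 held 301, 274 and 268 in controls against 402, 420.2, 442 and 513 in Myc-labelled libraries, a log2 change of 0.66 (limma, adjusted p = 0.0051), again with groups apart. Usp14, a deubiquitinase that docks on the cap, rose from 792 ± 66.3 (SD, n = 3) to 1035 ± 74.2 (SD, n = 4), a log2 change of 0.39 (limma, adjusted p = 0.031). Of the 17 alternatives, Psmg2 passed under 16 and Psmg1 and Usp14 under 9 each, and leaving out any single library ended the call of Psmg1. Usp14 was also lost without control 1 or 2, without Myc-labelled library 1, 3 or 4, and with both muscles fitted as 1 set (limma, adjusted p = 0.11). Psmg2 was lost only without Myc-labelled libraries 3 and 4 together.

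Other assembly factors did not pass. Psmg4, a further chaperone of the alpha ring, had a log2 change of 0.71 (limma, adjusted p = 0.094). Zfand5, from the same list, had -0.21 (limma, adjusted p = 0.33). Ube3c, a ubiquitin ligase that binds the proteasome, had 0.26 (limma, adjusted p = 0.19). In quadriceps none of the 16 was called, and their median log2 change was 0.14.

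**Figure D5:**
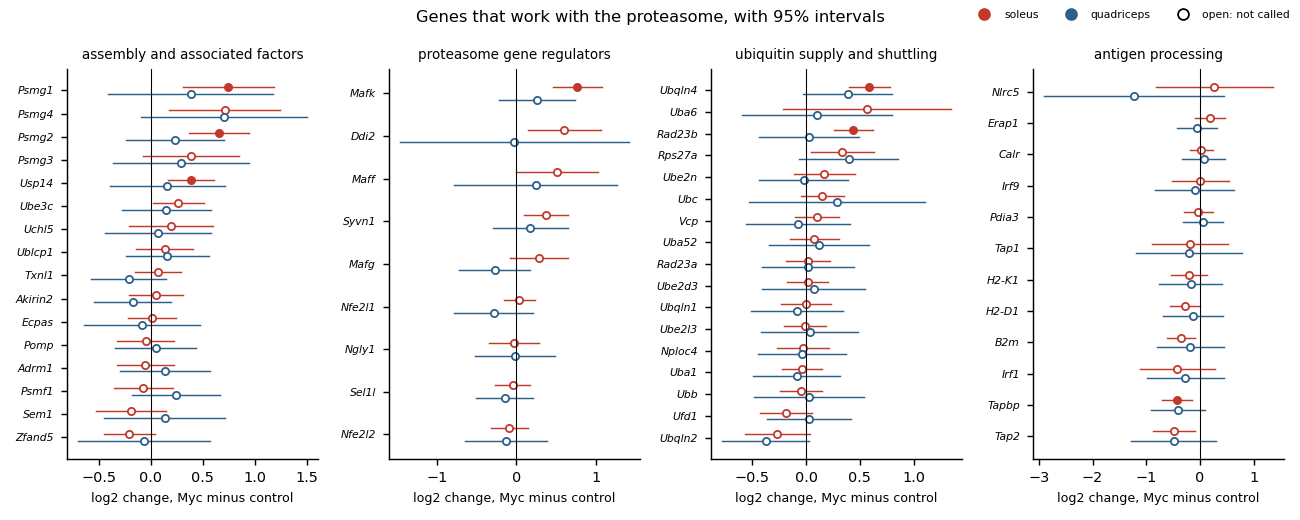
Log2 change in soleus (red) and quadriceps (blue), Myc-labelled minus control with 95% limma intervals, of genes that assemble, regulate, supply or use the products of the proteasome, by list, with filled points for called genes. In soleus Psmg1, Psmg2, Usp14, Mafk, Ubqln4 and Rad23b lie above 0 and Tapbp below it.

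Among 9 regulators of proteasome genes, 1 rose in soleus, beside 7.06% of all genes, and the median log2 change was 0.29. Mafk, a small Maf protein that pairs with the Nfe2l1 product on DNA, rose from 839 ± 181 (SD, n = 3) to 1423 ± 205 (SD, n = 4), a log2 change of 0.77 (limma, adjusted p = 0.0027). Nfe2l1 itself had a log2 change of 0.04 (limma, adjusted p = 0.85). Ddi2, the protease that releases the active form of that factor, had 0.61 (limma, adjusted p = 0.10), Syvn1 had 0.37 (limma, adjusted p = 0.092) and Maff had 0.52 (limma, adjusted p = 0.23).

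Of 17 genes of ubiquitin supply and shuttling, 2 rose in soleus, beside 7.06% of all genes, none fell, and the median log2 change was 0.02. Both encode shuttles that bring ubiquitinated proteins to the cap. Ubqln4 rose from 2518 ± 66.1 (SD, n = 3) to 3789 ± 255 (SD, n = 4), a log2 change of 0.59 (limma, adjusted p = 0.00042). Rad23b rose from 2184 ± 9.87 to 2961 ± 78.6, a log2 change of 0.44 (limma, adjusted p = 0.0031). Rps27a, a ubiquitin precursor gene, had 0.34 (limma, adjusted p = 0.16). Ubqln2 had -0.27 (limma, adjusted p = 0.29) and Ufd1 had -0.19 (limma, adjusted p = 0.37).

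Of 12 antigen-processing genes, which act on peptides the proteasome makes, 1 fell in soleus, beside 2.23% of all genes, and none rose, with a median log2 change of -0.20. Tapbp, which encodes the protein that bridges the peptide transporter and class I molecules, fell from 757 ± 42.2 (SD, n = 3) to 566 ± 91.2 (SD, n = 4), a log2 change of -0.43 (limma, adjusted p = 0.049). That call was kept under 5 of 17 alternatives, and of the single libraries left out in turn only Myc-labelled library 2 left it in place. B2m had -0.36 (limma, adjusted p = 0.081), Tap2 had -0.48 (limma, adjusted p = 0.13) and H2-D1 had -0.28 (limma, adjusted p = 0.22). Of the 8 leukocyte markers given above, 1 had a soleus log2 change above 0 and none was called. Their soleus sums were 1269 to 1587 in controls and 571 to 1279 in Myc-labelled libraries, and their part was not tested. In quadriceps no gene of these lists was called (limma).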

How the data were processed

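Each deposited number is a normalised signal: an estimated read count that the authors divided by the library's size factor, as read from the numbers themselves, with the muscles scaled apart. Tools in the submitters' processing notes are DESeq2, Partek and STAR 2.7.8a, and the builds are mm10 and mm39, all without a role. Below 300 reads, 91.0% to 93.5% of numbers lay within 0.02 of a whole read, short of the 95% needed for a test on counts. Depth is therefore an estimate.

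Values were tested as log2(value + 1) with limma 3.58.1 in R 4.3.3, using a trend of variance on mean and, through statmod 1.5.0, robust moderation. The added 1 understates changes of low genes. The filter kept genes at 10 or more in 3 libraries of soleus or 2 of quadriceps. The muscles had separate fits over all their genes, the difference between muscles was an interaction in 1 fit over 11 libraries, and a call is a Benjamini-Hochberg adjusted p under 0.05 over all genes. The fit was tested on simulated data with independent normal noise. Those data held none of the fibre differences between libraries given above, so no conclusion is drawn from them. Errors after ± are SDs between libraries unless SE is written.

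Libraries were grouped by title. The members, related lists and markers were chosen with earlier results of these data known, and 1 gene of the antigen-processing list is not reported here. Every member was accounted for by role. Values in each library are given for called members, catalytic subunits and their inducible counterparts, activators, and the largest and smallest soleus change in each role. From each related list the called genes and up to 3 more with the smallest soleus p could be named, and Psma5, Psmd9, Nfe2l1, Emc9 and Psme2b were added after their values were seen. Levels per kilobase use the shortest principal transcript in GENCODE vM21 (GRCm38), and promoters are from RefSeq (GRCm38.p6). Replicates differed by more than sampling noise. Alternatives were other scaling, limma-voom, filters, pseudocounts, moderation, a replicate block and leaving libraries out.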

Additional observations from a re-analysis of the deposited data

Results flagged for a closer look

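Of the 41 sets of 4 Myc-labelled soleus libraries, 1 held a library far from the others. Psma1, an alpha-ring subunit, was 937 in Myc-labelled library 2 and 1135 to 1172 in the other 3, and the gap to its nearest neighbour was 0.857 of the group's whole range on the log2 scale, above the 95% critical value for a set of that size. Chance flags about 1 such set in 20.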

How the results depend on the processing

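The number of proteasome genes called in soleus, 3 with the settings reported, was 2 or 3 under 15 of 17 alternatives. It was 1, Psme3, in 1 fit over all 11 libraries, and also 1, again Psme3, without Myc-labelled libraries 3 and 4 together, an alternative chosen after seeing the data. Leaving out single libraries gave 2 to 2, each time Psmb10 and Psme3. Psmb10 was called under 15 of 17 (log2 change 0.72 to 1.13), Psme3 under 17 of 17 and Psme1 under 5 of 17 (-0.56 to -0.38). Scaling by library totals called Psmb5 in place of Psme1. The count was 0 under all 13 quadriceps alternatives (leaving out single libraries, 0 to 0) and under all 19 for the difference between muscles (0 to 0). Among members not called, 17 of 38 in soleus, 30 of 41 in quadriceps and 25 of 41 for the difference changed sign under some alternative, so their directions are not settled. No called member changed sign. The correlation of same-numbered libraries' deviations from their group means was 0.00, 0.08 and 0.14 in soleus and 0.14 in quadriceps. With 2 libraries a group, the 2 quadriceps pairs give the same value by construction. Not every soleus library correlated best with its own number, so the numbers were not taken as pairs. With a replicate block 2 members were called in soleus (Psmb10 and Psme3), 0 in quadriceps and 0 for the difference. The block also ended the soleus calls of Psme1 (adjusted p = 0.0641) and Usp14 (adjusted p = 0.0536, limma), and no other call among the members and the 4 related lists. The planned edgeR and DESeq2 fits were not run, because whole reads could not be recovered. Depth mainly limits Psmb9, Psmb8 and Psme2, the members with the lowest values.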
